A study of Mus musculus with 25 samples.

Results

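Ms4a1, Cd79a, Cd79b, Bank1, Cd22, Fcrla, Pax5 and Jchain are genes of the B cell and plasma cell lineage, and they were followed here in arrays of dendritic cells and macrophages sorted from mouse Peyer's patches. These 8 genes, of 19938 with a single gene symbol, were picked from this platform by their symbols because they stood out in the arrays taken after R848. Every comparison that includes those arrays is therefore a description of these genes, without a test. Where only untreated arrays enter, the differences were tested. The untreated CD11b+ arrays are also the reference of the R848 response in which these genes stood out. Tests that use those arrays are therefore not fully independent of the choice of genes.

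B cells recognise antigen with a surface antibody whose signal passes through Cd79a and Cd79b, and Pax5 holds them in the B cell lineage. When they become plasma cells they lose Pax5 and secrete antibody, and Jchain links the subunits of secreted IgA and IgM. Peyer's patches are built around B cell follicles and germinal centres and are a main site where B cells switch to IgA. Conventional dendritic cells (cDC) are bone marrow derived cells that present antigen to T cells and make no antibody.

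The 25 arrays fell into 7 groups of cells from female wild-type C57BL/6 mice aged 6 to 8 weeks, each replicate being a pool from 42 mice. Untreated groups were CD11b+ cDC (5 arrays), double-negative (DN) cDC that lack both CD11b and CD8a (3), CD8a+ cDC (3), and LysoMac, the lysozyme-rich macrophages of the patch, without TIM-4 (3) or with it (3). CD11b+ cDC (3 arrays) and CD8a+ cDC (5) were also taken 9 h after gavage with R848, a ligand of TLR7. All groups were CD11c-high sorts after enrichment for CD11c. cDC were MHC class II positive and BST2-, with SIRPa on CD11b+ and DN but not on CD8a+ cDC, whereas LysoMac were MHC class II low, SIRPa+, BST2+ and CD4+. No B cell surface marker is among the sort markers that the labels list. Replicates are described by the submitters as independent.

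The sort markers were checked first, as group means of the log2 signal. Cd8a measured 10.06 in untreated CD8a+ cDC, 10.53 in CD8a+ cDC after R848 and 6.94 in CD11b+ cDC after R848. Timd4, which encodes TIM-4, was 10.79 in TIM-4+ and 5.67 in TIM-4- LysoMac. Itgam, the gene of CD11b, was 7.07 in untreated CD11b+ cDC but 4.20 in CD11b+ cDC after R848, no higher than in CD8a+ cDC after R848 (4.21). Sirpa separated the same R848 groups, at 9.72 in CD11b+ and 6.38 in CD8a+ cDC. Every array correlated at 0.9888 or more with the rest of its group.

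The arrays do not share 1 row order in the deposited table. They form 3 sets. One holds 14 arrays (CD11b+ and DN cDC and LysoMac without treatment), another the 3 arrays of untreated CD8a+ cDC, and the last the 8 arrays taken after R848, whose row names fit. Rows of both untreated sets were matched to the R848 rows, and a match was accepted at a posterior probability of 0.95. Ms4a1, Cd79a, Pax5 and Jchain had accepted rows in all sets. Cd22 and Fcrla had none in the 14-array set (posteriors 0.762 and 0.893), and Cd79b and Bank1 had none in untreated CD8a+ cDC (0.542 and 0.795); their values there are given as open points in the plot of all arrays and enter no difference. A difference across sets cannot be told apart from a difference between the sets.

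RefSeq (GRCm38.p6) gave promoters for 6 of the 8 genes, without Ms4a1 and Cd79b. For Cd79a, Pax5 and Jchain the 250 bases before the start lie outside the gene, and they are shown because these genes are the receptor, lineage factor and secretory parts of the set and were measured in every array. They are Cd79a at chr7:24897247-24897496 on the plus strand, Pax5 at chr4:44710695-44710944 on the minus strand and Jchain at chr5:88527898-88528147 on the minus strand, each written 5′ to 3′ along its gene. Capitals mark the letters AGGAAGT, the core bound by ETS factors such as Spi-B.
Cd79a: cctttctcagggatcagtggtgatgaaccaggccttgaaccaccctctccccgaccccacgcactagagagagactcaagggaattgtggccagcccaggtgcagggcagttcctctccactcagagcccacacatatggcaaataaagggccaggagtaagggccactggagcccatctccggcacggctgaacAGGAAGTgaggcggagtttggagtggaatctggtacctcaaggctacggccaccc
Pax5: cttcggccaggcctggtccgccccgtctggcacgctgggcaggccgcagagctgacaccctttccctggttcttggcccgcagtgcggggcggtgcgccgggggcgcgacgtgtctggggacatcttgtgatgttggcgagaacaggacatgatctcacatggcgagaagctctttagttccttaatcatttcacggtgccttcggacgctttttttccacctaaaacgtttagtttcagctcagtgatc
Jchain: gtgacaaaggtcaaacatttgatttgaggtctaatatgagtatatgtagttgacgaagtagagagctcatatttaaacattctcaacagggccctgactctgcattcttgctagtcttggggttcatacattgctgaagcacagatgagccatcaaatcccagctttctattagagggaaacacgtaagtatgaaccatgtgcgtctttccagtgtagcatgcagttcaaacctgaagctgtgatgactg

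The octamer and 3 other short motifs were searched on both strands of this 250-base window in the 6 promoters. Only exact matches to the letters given were counted, with N as any base, so binding sites that depart from them were missed. The ETS core was found once, in Cd79a, 55 bases before the start, and in 7.69% of all 32851 promoters. The core of EBF, CCCNNGGG, was found in Bank1 (21 bases before the start) and Cd22 (48 bases), against 11.8% of all promoters. The interferon regulatory factor core, GAAANNGAA, was found in Bank1 (119 bases) and Fcrla (192 bases), against 7.13% of all. The Bank1, Cd22 and Fcrla windows overlap the span of their own gene, those of Cd22 and Fcrla wholly. Their distances are thus to a start inside that span. The octamer ATTTGCAT, which the B cell coactivator Pou2af1 reads with its partner factors, was found in none of the 6 and in 1.6% of all. No match overlapped another. No motif searched was thus shared by all 6 windows.

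**Figure D1:**
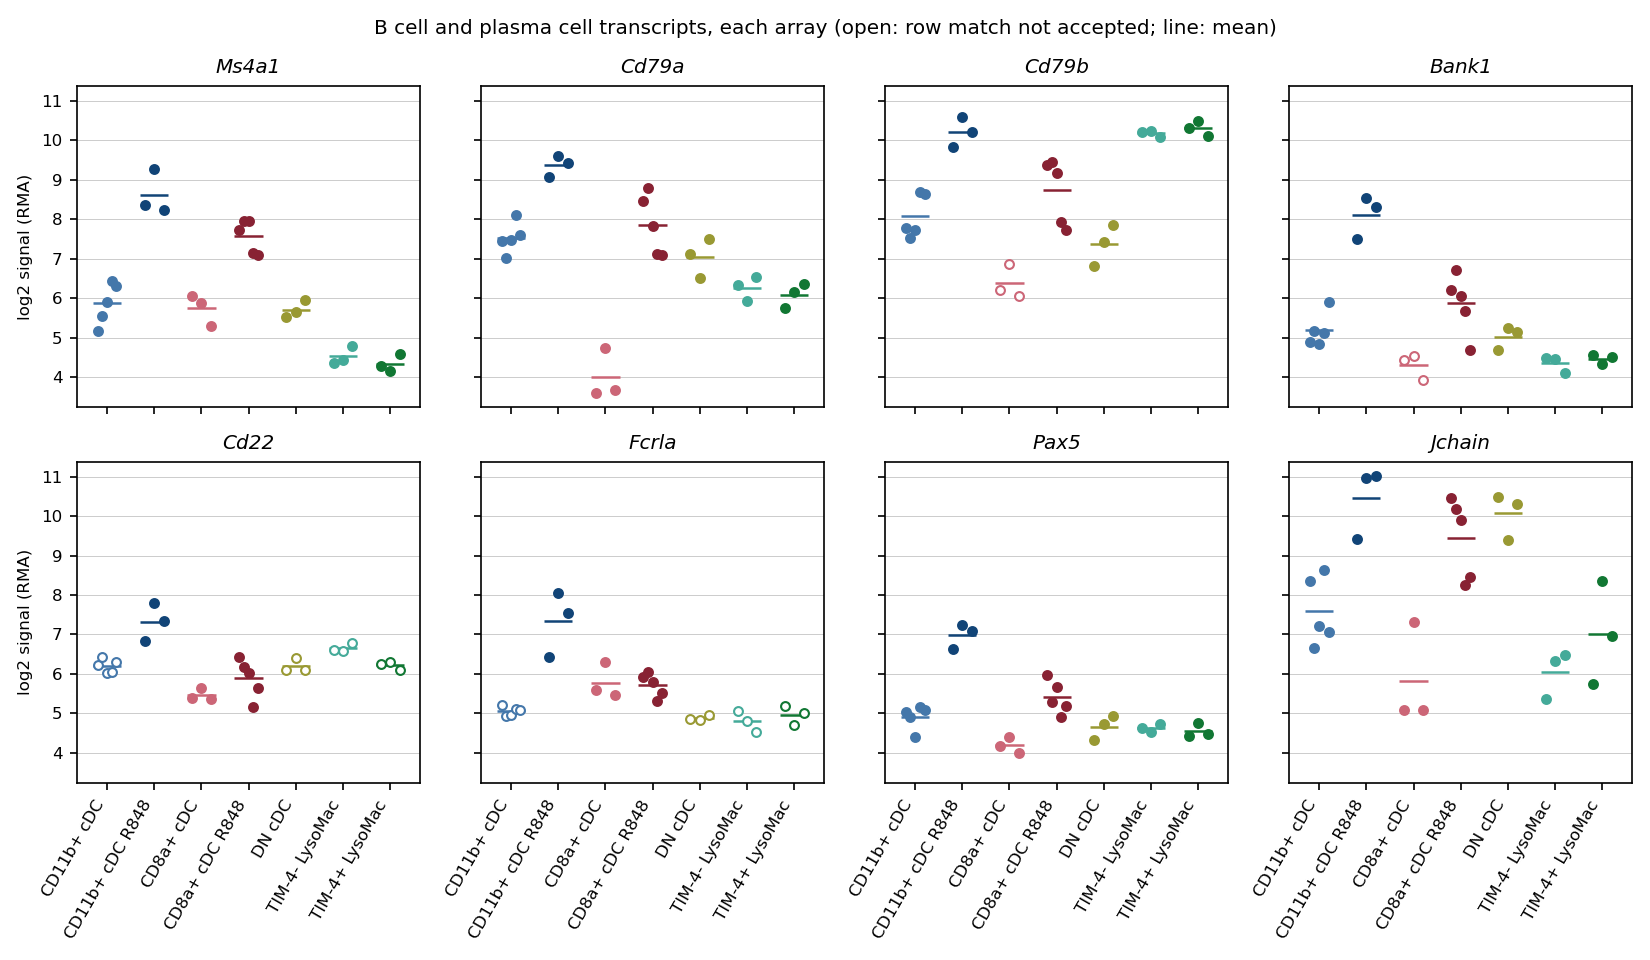
Log2 signal of the 8 genes in each of the 25 arrays (points), by group, with the group mean (line); open points are values whose row match was not accepted. All 8 genes have their highest cDC mean in CD11b+ cDC after R848, where the Cd79a arrays lie between 9.08 and 9.60, and Cd79b is as high in the 6 LysoMac arrays, at 10.09 to 10.49.

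Cd79a and Cd79b, the signalling pair of the B cell receptor, were above background in untreated CD11b+ cDC and higher after R848. Cd79a measured 7.46, 7.03, 7.47, 8.11 and 7.61 in the 5 untreated CD11b+ arrays and 9.08, 9.60 and 9.43 after R848. In untreated CD8a+ cDC it measured 3.61, 4.75 and 3.68, and after R848 8.46, 8.80, 7.83, 7.13 and 7.10. The treated and untreated arrays did not overlap in either cell type, and the second untreated CD8a+ array stood above the others of its group.

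Cd79b was at 7.79, 7.53, 7.72, 8.68 and 8.64 in untreated CD11b+ cDC, against 9.83, 10.59 and 10.21 after R848. CD8a+ cDC after R848 had 9.38, 9.45, 9.18, 7.94 and 7.72, with arrays 4 and 5 lowest. Unlike its partner, Cd79b was high in LysoMac: 10.22, 10.25 and 10.09 without TIM-4 and 10.31, 10.49 and 10.11 with it, where Cd79a lay between 5.75 and 6.54. DN cDC had 6.83, 7.42 and 7.87 for Cd79b and 7.13, 6.51 and 7.51 for Cd79a, within or near the range of untreated CD11b+ cDC.

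Ms4a1 encodes CD20, a surface protein of mature B cells. It measured 5.16, 5.56, 5.91, 6.44 and 6.31 in untreated CD11b+ cDC and 8.35, 9.27 and 8.23 after R848. In CD8a+ cDC it was 6.06, 5.88 and 5.30 untreated and 7.74, 7.95, 7.96, 7.16 and 7.09 after R848. Untreated CD11b+, CD8a+ and DN cDC (5.52, 5.66 and 5.96) overlapped, and LysoMac were lowest, at 4.15 to 4.79.

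Bank1 and Cd22 act on the B cell receptor signal, Bank1 as a scaffold and Cd22 as an inhibitory receptor. Bank1 was 4.90, 5.17, 4.84, 5.12 and 5.91 in untreated CD11b+ cDC and 7.51, 8.54 and 8.31 after R848, while CD8a+ cDC after R848 had 6.20, 6.71, 6.06, 5.68 and 4.70. DN cDC had 4.70, 5.24 and 5.14, and LysoMac had 4.10 to 4.57. Treated CD11b+ arrays therefore lay above every other Bank1 value.

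Cd22 measured 6.84, 7.79 and 7.33 in CD11b+ cDC and 6.42, 6.17, 6.03, 5.17 and 5.65 in CD8a+ cDC after R848, against 5.39, 5.65 and 5.37 in untreated CD8a+ cDC. Treated and untreated CD8a+ cDC overlapped. Fcrla, an Fc receptor-like protein of B cells that stays inside the cell, was 6.42, 8.06 and 7.56 in CD11b+ and 5.91, 6.05, 5.80, 5.31 and 5.51 in CD8a+ cDC after R848. The untreated CD8a+ arrays, at 5.59, 6.29 and 5.46, overlapped the treated ones.

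Pax5, the transcription factor that keeps B cell identity, was low in every untreated group. Untreated CD11b+ cDC had 5.03, 4.91, 4.40, 5.17 and 5.09, and CD8a+ cDC had 4.18, 4.40 and 4.00. After R848 the values were 6.63, 7.25 and 7.08 in CD11b+ and 5.98, 5.29, 5.66, 4.91 and 5.19 in CD8a+ cDC. The treated CD8a+ arrays overlapped those of untreated CD11b+ cDC but not those of untreated CD8a+ cDC. DN cDC (4.32 to 4.95) and LysoMac (4.42 to 4.76) had means between those of the untreated CD11b+ and CD8a+ cDC.

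Jchain varied most between arrays of 1 group. It was 8.37, 6.66, 7.22, 8.63 and 7.06 in untreated CD11b+ cDC, 9.41, 10.97 and 11.01 after R848, and 10.49, 9.40 and 10.31 in DN cDC without any treatment. CD8a+ cDC had 5.10, 7.31 and 5.10 untreated and 10.46, 10.18, 9.90, 8.26 and 8.45 after R848. TIM-4- LysoMac had 5.36, 6.33 and 6.49, and TIM-4+ LysoMac 5.74, 8.37 and 6.95. DN cDC thus overlapped both R848 groups in Jchain.

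By group mean, CD11b+ cDC after R848 came first for every gene except Cd79b. There the order was TIM-4+ LysoMac (10.30), CD11b+ cDC after R848 (10.21) and TIM-4- LysoMac (10.19), whose ranges overlapped. For Ms4a1, Cd79a, Bank1 and Pax5 the second mean was that of CD8a+ cDC after R848, at 7.58, 7.86, 5.87 and 5.40, and the first and second groups did not overlap. For Pax5 each group below these overlapped the next down to TIM-4+ LysoMac, and untreated CD8a+ cDC had the lowest mean. For Cd79a, untreated CD8a+ cDC were lowest and apart, at 4.01 ± 0.64 (SD, n = 3). As a gauge of background chosen after the values were seen, the 95th percentile of 917 olfactory receptor genes was 4.20 in that group. Cd79a and Pax5 (4.19) were at or under it there. In the other groups the means of all measured genes of the set were above the gauge of that group. The margin was narrow for Ms4a1 in TIM-4+ and for Bank1 in TIM-4- LysoMac.

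Untreated CD8a+ cDC carried less Cd79a, Jchain and Pax5 than untreated CD11b+ cDC. Cd79a was lower by a log2 difference of -3.52 ± 0.35 (SE, limma adjusted p = 4.83e-08, 5 against 3 arrays), with no overlap. Pax5 differed by -0.73 ± 0.21 (adjusted p = 0.00657) and Jchain by -1.75 ± 0.65 (adjusted p = 0.0313), while Ms4a1 differed by -0.13 ± 0.28 (adjusted p = 0.730) and turned to 0.13 under a common array median or 0.11 with cyclic loess. Since Cd79a and Pax5 were not above the olfactory receptor gauge in untreated CD8a+ cDC, their sizes are better read as bounds. With each CD8a+ array held at no less than its own gauge, the bound was 8.81-fold more Cd79a and 1.55-fold more Pax5 in CD11b+ cDC. Both bounds hold at the deposited scale only and carry no SE. These 3 of 4 genes stand against 38.6% of 16853 genes called lower and 8.43% called higher, a background pulled down by the level of the CD8a+ arrays: the median gene was -0.19. Arrays did not overlap for 7405 of the 16853 genes, in either direction. With arrays shifted to a common median, calls split into 3918 higher and 2404 lower in place of 1420 and 6513, and after cyclic loess into 3045 and 3090; Cd79a alone of the set passed in both. In bulk RNA, fewer cells of a type and less RNA per cell cannot be told apart, and these groups lie in different array sets, which cannot be told apart from the cell type.

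The Jchain call was lost without CD11b+ array 1 (-1.56, adjusted p = 0.0669) or 4 (-1.49, adjusted p = 0.0733), or CD8a+ array 1 (-1.38, adjusted p = 0.149) or 3 (-1.38, adjusted p = 0.143). Of other B cell genes, 14 of 24 were lower and 2 higher, with a median difference of -0.83. Over all genes 38.6% were lower and 8.43% higher, and these list counts are at the deposited scale only. The largest differences among other B cell genes were Spib (-4.82 ± 0.23), which cDC are also known to express, Ltb (-3.42 ± 0.40), Cd72 (-2.73 ± 0.33) and Siglecg (-2.48 ± 0.18). Each passed the test. Of plasma cell genes, 7 of 17 were lower, close to the share over all genes, and 3 higher. Among the lower were Irf4 (-3.17 ± 0.19), which also marks CD11b+ cDC, and Mzb1, a chaperone of antibody assembly (-1.43 ± 0.46). T cell genes were lower too, 6 of 9, and their mean level per array was 5.14 to 5.53 in CD11b+ and 3.97 to 4.01 in CD8a+ cDC. Epithelial genes were lower for 7 of 14 (5.64 to 7.41 against 4.36 to 5.10). The part of these other transcripts in the result was not tested.

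DN cDC differed from CD11b+ cDC in 1 of the 6 measured genes. Jchain was higher by 2.48 ± 0.65 (limma adjusted p = 0.0298, 3 against 5 arrays), and the arrays did not overlap. Bank1, Cd79a, Cd79b, Ms4a1 and Pax5 had differences of -0.70 to -0.16, none called (adjusted p 0.356 to 0.845). Over all 18131 genes, 2.45% were called higher and 1.64% lower, 445 and 297 genes, which became 355 and 639 with arrays shifted to a common median. Arrays did not overlap for 1735 of the 18131, in either direction. The Jchain call was lost without CD11b+ array 2 (2.25, adjusted p = 0.0564), 3 (2.39, adjusted p = 0.0525) or 5 (2.35, adjusted p = 0.0739), or without DN array 1 (2.27, adjusted p = 0.143) or 3 (2.36, adjusted p = 0.112).

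Among plasma cell genes in the DN cDC comparison, 2 of 17 were higher, Tnfrsf17, the survival receptor BCMA (0.64 ± 0.09), and Fkbp11 (0.50 ± 0.12), and 1 was lower, Ell2 (-0.56 ± 0.16). None of 24 other B cell genes passed in either direction. Genes of follicular dendritic and stromal cells were called higher for 9 of 14, led by Sparc (4.97 ± 0.46) and Igfbp7 (4.95 ± 0.45), and their mean level per array was 5.63 to 5.85 in DN against 4.36 to 4.82 in CD11b+ cDC. T cell genes were higher for 2 of 11 (Il7r by 1.45 ± 0.18 and Lat by 0.79 ± 0.17) and lower for 1. Mean levels of the epithelial list were 6.54 to 7.39 against 5.64 to 7.41. Whether these transcripts bear on Jchain was not tested.

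LysoMac carried less Ms4a1, Cd79a, Bank1 and Jchain than CD11b+ and DN cDC, and more Cd79b. The mean of both LysoMac group means was set against that of both cDC group means, whatever their array numbers. Cd79b was higher by 2.52 ± 0.28 (limma adjusted p = 2.76e-07, 6 against 8 arrays, no overlap). Jchain was lower by -2.29 ± 0.49 (adjusted p = 0.000700), Ms4a1 by -1.36 ± 0.21 (adjusted p = 1.75e-05), Cd79a by -1.11 ± 0.26 (adjusted p = 0.00181) and Bank1 by -0.70 ± 0.25 (adjusted p = 0.0354). Pax5 differed by -0.20 ± 0.16 (adjusted p = 0.377). Ms4a1 in TIM-4+ LysoMac (mean 4.34) and Bank1 in TIM-4- LysoMac (4.35) were close to the olfactory receptor gauge, which was 4.31 in both groups. The sizes of the Ms4a1 and Bank1 differences are therefore uncertain. The background was 14.7% of 18131 genes higher and 17% lower, and 2744 genes had no overlap, in either direction. The LysoMac and cDC arrays of this comparison were in the same array set. Cd79a and Jchain arrays overlapped between LysoMac and cDC. For Jchain the cDC side was raised by DN cDC, with a mean of 10.07 against 7.59 in CD11b+ cDC. TIM-4+ and TIM-4- LysoMac had 7.02 and 6.06.

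Bank1 is the weakest of these calls. It was lost in 8 of the fits that leave out 1 array: CD11b+ array 5 (-0.61, adjusted p = 0.0588), DN array 2 (-0.64, adjusted p = 0.0810) or 3 (-0.67, adjusted p = 0.0734), TIM-4- array 2 (-0.73, adjusted p = 0.0506) or 3 (-0.64, adjusted p = 0.0848), or TIM-4+ array 1 (-0.72, adjusted p = 0.0507), 2 (-0.66, adjusted p = 0.0740) or 3 (-0.71, adjusted p = 0.0559).

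Other B cell genes were lower in LysoMac for 17 of 24 and higher for 2, against 17% and 14.7% of all genes. H2-Ob, a subunit of the class II regulator H2-O (-4.44 ± 0.13), Ltb (-3.74 ± 0.30), Siglecg (-3.28 ± 0.13) and Cd72 (-3.25 ± 0.25) were the largest. Of the B cell receptor signalling list, 10 of 20 were lower, among them Rasgrp3 (-4.22 ± 0.18), and 4 were higher, among them Cd81, a partner of the B cell coreceptor that many other cells carry (3.48 ± 0.18). Plasma cell genes had 5 of 17 lower, with Irf4 (-1.92 ± 0.14), Tent5c (-1.27 ± 0.18) and Mzb1 (-1.20 ± 0.34), and 4 higher. Some lists of other cells were lower in LysoMac too: 5 of 11 T cell genes, 8 of 14 follicular dendritic and stromal genes, 5 of 15 epithelial genes and 9 of 10 cDC genes, with 1, 2, 1 and 0 higher. Plasmacytoid dendritic cell genes went the other way, with 8 of 13 higher and 4 lower. So did CD11b+ cDC genes, with 5 of 9 higher and 3 lower. The part of these lists in the result was not tested. Cd79b thus differed in the direction opposite to its partner Cd79a and to most of the other B cell genes.

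Between TIM-4+ and TIM-4- LysoMac none of the 6 measured genes passed limma's test, against 0.171% of 18131 genes called higher and 0.276% lower. Jchain had the largest difference, 0.96 ± 0.73 (adjusted p = 1.000, unadjusted p = 0.200), and the other 5 lay between -0.19 and 0.12, with no unadjusted p under 0.05. Other B cell genes had 0 of 24 called and plasma cell genes 0 of 17.

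**Figure D2:**
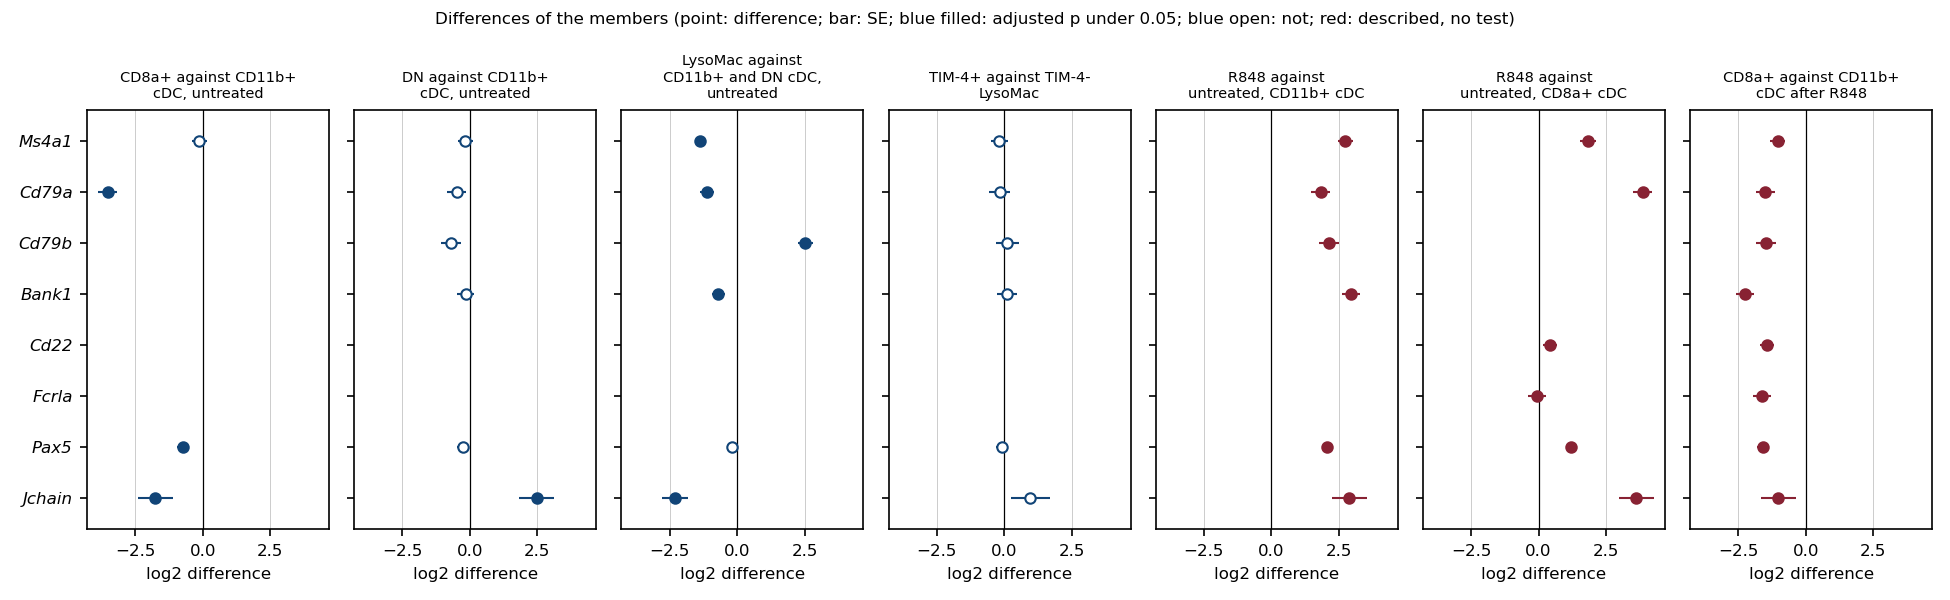
Log2 difference (point) with its SE (bar) of each gene with an accepted row, one panel per comparison; blue filled points passed the test, blue open points did not, and red points were described without a test. Cd79b is higher in LysoMac (2.52) while Jchain is higher in DN cDC (2.48), and after R848 all measured genes lie right of 0 in CD11b+ cDC.

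In CD11b+ cDC, all 6 genes measured in both states were at least 2-fold higher after R848, and the treated arrays lay above every untreated one. Log2 differences were 2.94 ± 0.33 for Bank1, 2.88 ± 0.65 for Jchain, 2.74 ± 0.28 for Ms4a1, 2.14 ± 0.37 for Cd79b, 2.07 ± 0.21 for Pax5 and 1.83 ± 0.35 for Cd79a (SE, 3 against 5 arrays), with a median of 2.44. Across all 18131 genes, 2.67% were at least 2-fold higher and 4.8% at least 2-fold lower, and the median was -0.03. For 6739 of them the treated and untreated arrays did not overlap, in either direction. The genes were chosen from this response, so nothing is read from that contrast. Treated and untreated arrays are also different array sets, so treatment and array set cannot be told apart. With all matched rows, Fcrla (2.28 ± 0.25) and Cd22 (1.12 ± 0.21) had the same direction.

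Other B cell genes in this comparison were at least 2-fold higher for 11 of 24 and lower for 2, with a median of 0.86. They included the surrogate light chain partner Vpreb3 (2.58 ± 0.54), Fcrl1 (2.20 ± 0.31) and Scd1 (1.97 ± 0.42), whereas Ltb went the other way (-2.63 ± 0.40). Plasma cell genes were at least 2-fold higher for 4 of 17, with Prdm1, the regulator of plasma cell differentiation (2.06 ± 0.36), and Mzb1 (2.04 ± 0.46). Of that list 13 were above 0 and 0 at least 2-fold lower, but Xbp1 differed by -0.80 ± 0.23 and Creld2 by -0.55 ± 0.19. Blnk, the adaptor that joins Syk to downstream signalling in B cells, was higher by 3.08 ± 0.37 in a list whose median was -0.22. T cell genes had 1 of 11 at least 2-fold higher and 3 lower, epithelial genes 1 of 15 higher and 7 lower, and plasmacytoid dendritic cell genes 1 of 13 higher and 0 lower. The interferon-stimulated list had 6 of 8 at least 2-fold higher.

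CD8a+ cDC had 4 of 6 measured genes at least 2-fold higher after R848. Cd79a differed by 3.85 ± 0.35, Jchain by 3.62 ± 0.65, Ms4a1 by 1.83 ± 0.28 and Pax5 by 1.21 ± 0.21 (SE, 5 against 3 arrays), each without overlap. With the untreated arrays held at the same gauge, the bound was 11.1-fold more Cd79a and 2.17-fold more Pax5 after R848. These bounds, too, hold at the deposited scale only and carry no SE. Cd22 differed by 0.42 ± 0.27 and Fcrla by -0.06 ± 0.32, both overlapping. Of 18169 genes, 5.86% were at least 2-fold higher and 4.84% lower, and the median was 0.18. Treated and untreated arrays did not overlap for 10239 of these genes, in either direction, so non-overlap was common here. Fcrla turned to 0.20 without untreated array 2, to 0.04 without treated array 4 and to 0.14 without treated arrays 4 and 5. These groups, too, were in different array sets and share no arrays with the CD11b+ comparison.

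Other B cell genes in CD8a+ cDC were at least 2-fold higher for 12 of 28 and lower for 3, with a median of 0.49. Spib had a mean of 4.00 untreated and 10.55 after R848, a difference of 6.56 ± 0.23, which brought it to the level that CD11b+ cDC had after R848 (10.56). Ly6d (3.90 ± 0.46), Swap70 (3.42 ± 0.13) and Vpreb3 (2.78 ± 0.54) followed. Plasma cell genes were at least 2-fold higher for 5 of 20, with Mzb1 at 2.48 ± 0.46, Irf4 at 2.09 ± 0.19 and Prdm1 at 1.92 ± 0.36. Creld2 was the 1 at least 2-fold lower (-1.24 ± 0.19), and 13 of the 20 were above 0. Ighm, the constant region of IgM and the only immunoglobulin row matched in untreated arrays, went the other way: 7.50, 7.58 and 7.50 untreated against 6.65, 6.31, 6.28, 5.24 and 5.31 after R848. T cell genes were at least 2-fold higher for 3 of 12, led by Il7r (4.85 ± 0.18), and the mean level of 9 of them was 3.97 to 4.01 untreated and 4.84 to 5.56 after R848. The part of such other transcripts was not tested.

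After R848 both cell types lie in the same array set, with no row matching, and there CD8a+ cDC had less of all 8 genes than CD11b+ cDC. The differences were -2.25 ± 0.33 for Bank1, -1.63 ± 0.33 for Fcrla, -1.58 ± 0.21 for Pax5, -1.50 ± 0.35 for Cd79a, -1.48 ± 0.37 for Cd79b, -1.44 ± 0.27 for Cd22, -1.04 ± 0.28 for Ms4a1 and -1.01 ± 0.65 for Jchain (SE, 5 against 3 arrays). All 8 were at least 2-fold lower, and Jchain alone overlapped. Over 19938 genes 2.51% were at least 2-fold lower and 1.34% higher, and 3381 had no overlap, in either direction. Without CD8a+ arrays 4 and 5, which were the lowest CD8a+ arrays for all 8 genes, 5 of 8 were at least 2-fold lower and Jchain differed by -0.28; the direction stayed for all 8.

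Other B cell genes were at least 2-fold lower in treated CD8a+ cDC for 16 of 28 and higher for 0, with a median of -1.35, led by Cd72 (-2.29 ± 0.33), Siglecg (-2.02 ± 0.18), Ly6d (-1.91 ± 0.47) and Ebf1, the early B cell factor (-1.73 ± 0.19). Plasma cell genes had 3 of 20 at least 2-fold lower and 0 higher, and germinal centre genes 1 of 12 lower and 1 higher. T cell genes had 1 of 15 lower and 1 higher. Lists of other cells were lower as well: LysoMac genes for 7 of 15 and none higher (median -0.99), and plasmacytoid dendritic cell genes for 6 of 14 with 1 higher (median -0.14). The part of these transcripts in the result was not tested. The medians of the 8 genes and of the other B cell genes were -1.49 and -1.35, against 0.03 over all genes. Both sets were chosen with earlier results of these data known, so their likeness is a description only.

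**Figure D3:**
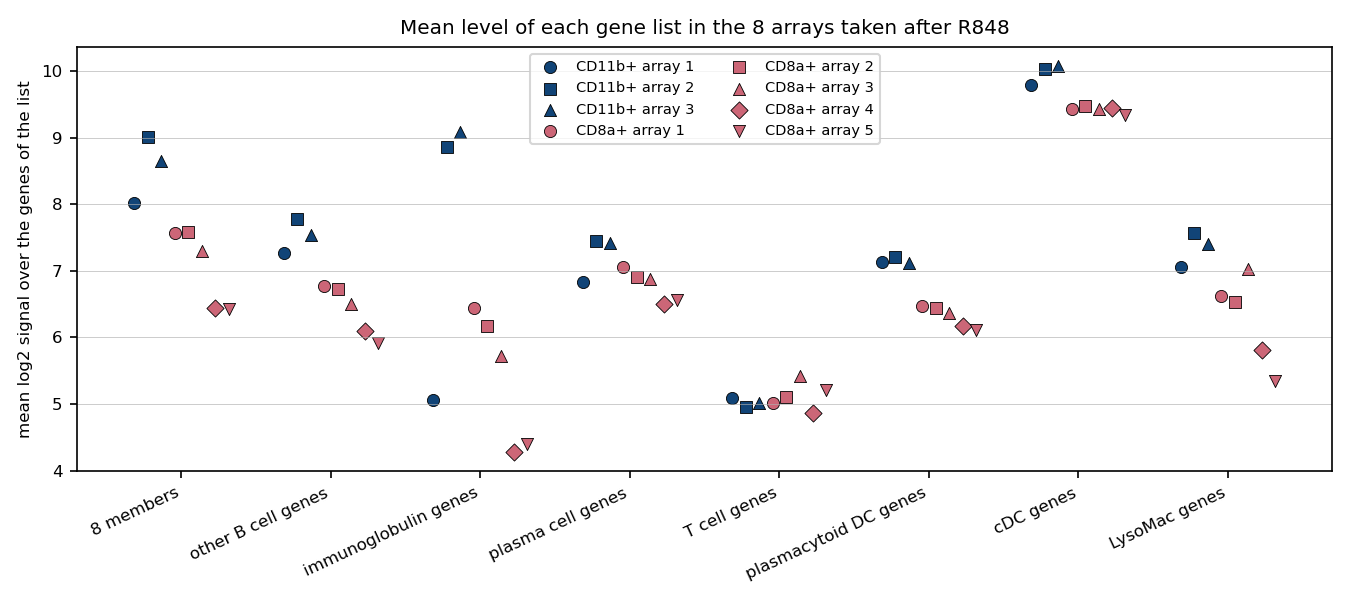
Mean log2 signal over the genes of a list (vertical axis) in each of the 8 arrays taken after R848, with CD11b+ arrays in blue and CD8a+ arrays in red. The mean of the 8 members is lowest in CD8a+ arrays 4 and 5 (6.44 and 6.43), and the 3 immunoglobulin genes range from 5.07 to 9.08 within CD11b+ cDC, while the cDC list spans 9.34 to 9.47 in CD8a+ cDC.

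With group means removed, the 8 genes moved together over the 8 R848 arrays. As values minus the group mean over the 8 arrays, 28 pairs of members correlated at 0.523 to 0.938 with a median of 0.801, the highest being Cd79a with Cd79b. These correlations pool both groups, and CD8a+ arrays 4 and 5 were low for all 8 genes. A background over other gene pairs was not computed. In CD8a+ cDC the mean of the 8 genes was 7.57, 7.58, 7.30, 6.44 and 6.43, and other B cell genes were 6.78, 6.73, 6.49, 6.10 and 5.92. LysoMac genes were likewise lowest in arrays 4 and 5, at 6.62, 6.53, 7.03, 5.81 and 5.35. The list of cDC genes was 9.43, 9.47, 9.42, 9.44 and 9.34, and T cell genes were 5.02, 5.11, 5.43, 4.86 and 5.22. In CD11b+ cDC array 1 was lowest, with 8.01 against 9.01 and 8.64 for the mean of the 8 genes. It had 7.26 against 7.78 and 7.54 for other B cell genes and 9.79 against 10.03 and 10.07 for cDC genes. Ms4a1, however, was lowest in CD11b+ array 3 (8.23, against 8.35 in array 1). Whether carry-over of other cells or their RNA differed between these arrays was not tested. In the 14 untreated arrays, 15 pairs correlated at -0.459 to 0.710, with a median of 0.403.

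**Figure D4:**
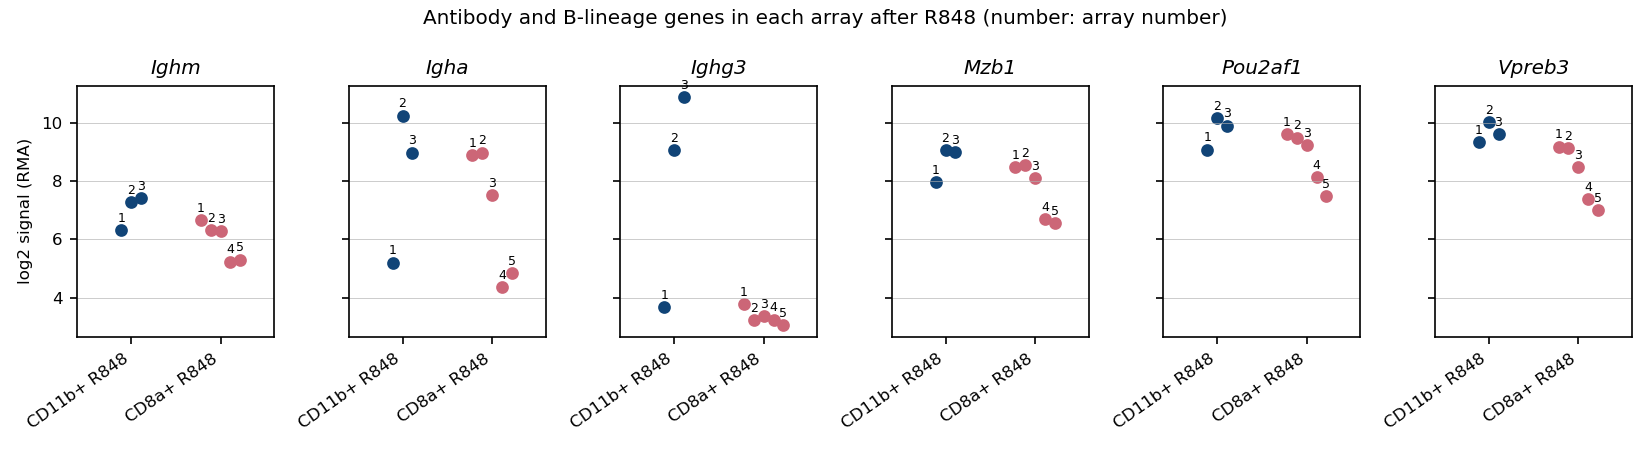
Log2 signal of 3 immunoglobulin constant region genes and 3 B-lineage genes in each array after R848, numbered by array. Igha is near 5 in CD11b+ array 1 (5.21) and in CD8a+ arrays 4 (4.37) and 5 (4.85) and above 7.5 in the other 5 arrays, and Ighg3 is above 9 only in CD11b+ arrays 2 and 3.

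Antibody genes themselves varied widely between these arrays. Igha, the constant region of IgA, was 5.21, 10.24 and 8.96 in CD11b+ and 8.88, 8.97, 7.52, 4.37 and 4.85 in CD8a+ cDC. Ighg3 was 3.68, 9.05 and 10.86 in CD11b+ cDC, but 3.06 to 3.79 in all 5 CD8a+ arrays. Ighm was 6.32, 7.28 and 7.40 in CD11b+ cDC. Jchain, whose product joins IgA and IgM, was lowest in the same arrays as Igha: CD11b+ array 1 and CD8a+ arrays 4 and 5. The immunoglobulin rows are those with a single gene symbol, 3 of 18 listed, and their probes can also pick up related constant regions.

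Over all 25 arrays, the genes with a pattern most like the mean of Ms4a1, Cd79a, Pax5 and Jchain were Mzb1 (Pearson r = 0.973), Vpreb3 (0.923), Il7r (0.919), Foxo1 (0.918), Scd1 (0.904), Cd2 (0.903), Tmod3 (0.902), Lad1 (0.901), Bend5 (0.899) and Ikzf3 (0.897). Of the 9177 genes that ranged over at least 1 log2 unit in all arrays, 8 (0.0872%) besides the members reached 0.9. The 25 points share their group and array set, and the R848 arrays hold the high end. Within the 8 R848 arrays Mzb1 correlated at 0.907 and Scd1 at 0.974 with the mean of all 8 members, and within the 14 untreated arrays Mzb1 stayed at 0.912 and Il7r at 0.618. Taken singly, Ms4a1 was most like Tec (0.956), Gnai3 (0.945) and Ppp1cb (0.943), Cd79a like Pygl (0.932), Spib (0.920) and Mreg (0.918), Pax5 like Fcrl5 (0.955), Cd2 (0.928) and Gm4759 (0.916), and Jchain like Mzb1 (0.894), Il7r (0.842) and Bhlha15 (0.839). Each single member thus had its own nearest genes, with Mzb1 next to Jchain and Spib next to Cd79a.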

How the data were processed

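RNA of sorted Peyer's patch cells was hybridised to 25 Affymetrix Mouse Gene 1.0 ST arrays. The deposited values are log2 signals that the authors made with RMA, using Expression Console 1.4.1 (per the submitters' processing notes). The genome build, and whether all arrays were normalized together, is not given in the sources used here. Array medians were 4.29 to 4.60, and the number of arrays limits the precision.

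Row order differed between 3 array sets (correlations of 0.938 or more within and 0.0755 to 0.225 across). Rows were matched in order by a pair hidden Markov model on mean levels of the same cell type with and without R848, which disfavours large differences. Of 28939 rows (6617 before the first annotated row were left out), 87.0% and 88.1% were accepted; with rows rolled out of place 1438 and 1396 were. Transcript clusters of 1 gene correlated at 0.836 and 0.827 after matching, against 0.149 and 0.0689 as deposited. Simulated data covered only row matching between CD11b+ and CD8a+ cDC after R848, which lie in the same array set. A wrong partner was given there to 0.51% to 0.562% of the rows accepted. Acceptance there was 94% to 94.1% over all rows but 86.2% to 87.9% among rows made to change. The share of wrong partners in the matching across array sets was not tested.

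Rows with 1 symbol in the platform annotation (21789 of 23410 probes) gave 19938 genes, 1 transcript cluster each. limma 3.58.1 in R 4.3.3 fitted all 7 groups without a block, with Benjamini-Hochberg adjustment over the genes of each comparison and a call under 0.05. On simulated data with 16853 genes it recovered 93, 95, 100 and 92 of 100 genes changed 2-fold (CD8a+ against CD11b+, DN against CD11b+, LysoMac against cDC, TIM-4+ against TIM-4-). R848 comparisons use log2 differences with SE and a 2-fold count. Comparisons with untreated CD11b+ cDC share its 5 arrays.

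The 8 members and all lists were chosen with earlier results of these data known. Named list genes are up to 4 per list with the largest difference among those called (past 2-fold where R848 arrays enter); named likeness genes are the 10 nearest to the members' mean and the 3 nearest to each single member. Some genes stand in 2 lists, such as Cd72, Ly6d and Irf4. RefSeq promoters came from GRCm38.p6. Alternatives concerned scaling, row matching, transcript clusters, dim genes, array weights, the replicate block and leaving out arrays.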

Additional observations from a re-analysis of the deposited data

How the results depend on the processing

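Of the counts and medians for whole comparisons, 171 values under an alternative stayed within 1.5 times the main count or within the spread between arrays and 17 did not; of single genes, 637 kept direction and call, 22 lost the call and 12 turned sign, the tested ones uncalled before and after. The turns were Ms4a1 in untreated CD8a+ against CD11b+ cDC (-0.13), at 0.13 with arrays shifted to a common median, 0.11 after cyclic loess, 0.13 with array weights and -0.31 to 0.092 with 1 array left out; Ms4a1 in DN against CD11b+ cDC (-0.16), at 0.017 with array weights; Bank1 there (-0.16), from -0.27 to 0.021 with 1 array left out; Bank1 between LysoMac groups (0.12), from -0.0082 to 0.19 with 1 array left out; and Fcrla, below. For untreated CD8a+ against CD11b+ cDC, 3 of the 8 genes were called, 1 with arrays shifted to a common median, 1 after cyclic loess (Cd79a both times) and 7 with all matched rows, where more of them are tested and Fcrla is higher (0.71); 2 to 3 were called with 1 array left out. Genes called there fell from 7933 to 4318 when only genes above the median level, and so fewer, were tested. For DN against CD11b+ cDC, 742 genes were called, against 428 above the median level, 355 with only the arrays compared and 499 to 970 with 1 array left out; the 1 call among the 8 genes, Jchain, became 0 to 1 with 1 array left out. LysoMac against cDC had 5 of the 8 genes called and 3 after cyclic loess, which drops Cd79b and Bank1. TIM-4+ against TIM-4- LysoMac had 81 genes called, 31 with only the arrays compared and 49 to 81 with 1 array left out (49 without TIM-4- array 1 and 52 without array 3). The median member difference in CD8a+ cDC after R848 moved from 1.52 to 2.69 after cyclic loess, which drops Cd22 and Fcrla, and Fcrla (-0.06) lay between -0.22 and 0.20 with 1 array left out, above 0 without untreated array 2 (0.20) or treated array 4 (0.04), and was 0.14 without treated arrays 4 and 5. Leaving out treated CD8a+ arrays 4 and 5 was chosen after seeing the data. Same-numbered arrays did not deviate together (63 pairs, 9 over 0.1, median r = -0.015); with the replicate block the DN call on Jchain was lost (0 of the 8 genes called, adjusted p = 0.124). Other causes were not tested. Rows with large differences are accepted less often, and 2 to 4 of the 8 genes have no accepted value in a comparison that needs matching.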

Other observations

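Factors that attract or support B cells, together with the receptors Il21r and Cd40, were a separate list with 10 genes on the array, none of them among the 8. In CD8a+ cDC 5 of 8 were at least 2-fold higher after R848 and 2 lower, against 5.86% and 4.84% of all genes. The list median was 1.88. The higher ones included the receptor of IL-21, Il21r (3.54 ± 0.16), and the chemokine Ccl19 (2.90 ± 0.10). Also among them were Cxcl13 (1.95 ± 0.41), a ligand of the chemokine receptor Cxcr5 on B cells, and Aldh1a2, which makes retinoic acid (2.59 ± 0.17). In CD11b+ cDC 2 of 8 were at least 2-fold higher, Aldh1a2 (2.09 ± 0.17) and Cxcl13 (1.19 ± 0.41), and 0 lower. The shares over all genes there were 2.67% and 4.8%. After R848, CD8a+ cDC had more Ccl19 than CD11b+ cDC (3.20 ± 0.10) and less Il6 (-2.42 ± 0.30). The list did not follow the members across the arrays: its mean was 7.83, 7.75, 7.75, 7.61 and 7.80 in the 5 CD8a+ arrays and 7.54, 7.29 and 7.49 in the 3 CD11b+ arrays.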
